A study of Mus musculus with 8 samples.

Results

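The genes of the integrated stress response described here are Atf4, Atf5, Ddit3, Trib3, Chac1, Asns, Sesn2, Ppp1r15a, Xbp1 and Hspa5. They were chosen by name, matched by gene symbol, and are 10 of the 53697 genes in the count table. All 10 passed the filter on low counts, which left 18322 genes for testing.

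RNA was sequenced from mammary tumor cells of MMTV-PyMT mice on a C57BL/6 background, in which the polyoma middle T oncogene is driven by the mouse mammary tumor virus promoter. PyMT-Dll1GFP mice carried a GFP knock-in at Dll1, and PyMT-Dll1mCh mice carried a BAC-based mCherry reporter for Dll1. Cells bearing CD45, CD31 or Ter119 were removed, and the rest were sorted on reporter fluorescence, as Dll1+ or Dll1- cells. From each of 2 GFP mice and 2 mCh mice both sorts were sequenced, which makes 8 libraries in 4 within-mouse pairs. All groups carried the oncogene and a reporter, no group was treated, and the labels gave no age.

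In the integrated stress response, kinases that sense amino acid shortage, unfolded protein in the endoplasmic reticulum (ER), double-stranded RNA or lack of heme phosphorylate the initiation factor eIF2. General translation then falls, while mRNAs with upstream reading frames, among them Atf4, Atf5, Ddit3 and Ppp1r15a, are translated more. The ATF4 protein drives genes of amino acid synthesis, amino acid transport and tRNA charging, and under lasting stress Ddit3, Trib3 and Chac1. In mammary tumors the pathway is known for the response to hypoxia and nutrient shortage. The libraries measure mRNA and thus neither eIF2 phosphorylation nor the amount of ATF4 protein.

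Total counts ranged from 27301396 to 123907626 per library. Dll1 itself, the gene behind the sort, was at 7.61 and 13.7 CPM (counts per 1 M of the library total, TMM-normalized) in the Dll1- and at 87.5 and 138 CPM in the Dll1+ libraries of the GFP mice. In the mCh mice it was at 34.7 and 50.3 CPM in the Dll1- and at 203 and 250 CPM in the Dll1+ libraries. The epithelial marker Epcam was present throughout, at 899 to 1239.5 CPM. The 11 fibroblast and pericyte markers summed to 8686 and 24247 CPM in the 2 Dll1- libraries of the mCh mice, to 3731 and 3867 CPM in their Dll1+ libraries, and to 1262 to 1469 CPM in the 4 GFP libraries. Endothelial, immune and erythroid lists were likewise highest in the mCh Dll1- libraries, although CD31, CD45 and Ter119 were gated out. Pecam1, which encodes CD31, was at 42.6 and 98.2 CPM there and at 13.7 to 14.3 CPM in the GFP libraries, and Ptprc, which encodes CD45, was at 10.4 and 12.7 CPM there and at 2.88 to 4.39 CPM in the GFP libraries. The part of these cells in the results below was not tested.

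Short stretches of 5′ flanking DNA are shown for the genes that passed the test of Dll1 status, and for the motif matches found in the set. All come from RefSeq promoter windows of 250 bases before each start site (build GRCm38.p6), which matched all 10 genes. The first 3 are the 150 bases before the outermost annotated start of Ddit3 (chr10:127290624-127290773, plus strand), Sesn2 (chr4:132510502-132510651, minus strand) and Ppp1r15a (chr7:45526269-45526418, minus strand), written 5′ to 3′ on the strand of the gene, with a motif match in capitals.
Ddit3: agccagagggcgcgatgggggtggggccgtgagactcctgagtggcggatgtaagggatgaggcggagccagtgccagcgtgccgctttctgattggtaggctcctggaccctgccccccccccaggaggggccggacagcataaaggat
Sesn2: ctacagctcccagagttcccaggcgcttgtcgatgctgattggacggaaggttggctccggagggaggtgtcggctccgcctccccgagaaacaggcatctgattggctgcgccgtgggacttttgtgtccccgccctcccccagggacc
Ppp1r15a: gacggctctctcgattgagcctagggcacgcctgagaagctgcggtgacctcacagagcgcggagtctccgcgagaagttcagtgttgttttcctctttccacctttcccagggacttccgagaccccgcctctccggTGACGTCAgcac

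The other 3 are the 30 bases around a match, in capitals, in Asns (chr6:7693214-7693243, minus strand), Chac1 (chr2:119351038-119351067, plus strand) and Hspa5 (chr2:34772020-34772049, plus strand).
Asns: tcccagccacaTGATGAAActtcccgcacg
Chac1: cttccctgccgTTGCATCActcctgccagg
Hspa5: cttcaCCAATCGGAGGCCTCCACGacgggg

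The letters searched, on both strands, were those of 4 motifs. The C/EBP-ATF response element bound by ATF4 (CARE, TGATGNAA) was found in 2 of the 10 genes, Asns and, on the other strand, Chac1, and in 3.45% of the 32817 RefSeq windows of this length. The ER stress response element (ERSE, CCAAT and CCACG with 9 bases between) was found in Hspa5 and in 0.113% of windows. The cyclic AMP response element (CRE, TGACGTCA) was found in Ppp1r15a, 12 to 5 bases before the start site (positions -12 to -5), and in 1.55% of windows. The UPRE, bound by XBP1 (TGACGTGG), was found in none of the 10 and in 0.564% of windows, and no motif was found in the windows of Atf4, Atf5, Ddit3, Trib3, Sesn2 or Xbp1. No matches of different motifs overlapped, although the CRE and the UPRE share their first 5 letters. In GENCODE, Asns and Hspa5 begin 45 and 120 bases upstream of the RefSeq start site, so that their matches lie inside the annotated gene there. These windows end at the start site, so elements farther upstream or inside the genes were not searched.

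Per kilobase of exon, the levels covered a wide range. Xbp1 and Hspa5 were highest, with means over the 8 libraries of 386 and 355 CPM per kb, followed by Atf4 at 128 and Ppp1r15a at 77.1 CPM per kb. Atf5 (23.9), Ddit3 (22.8), Asns (14.4), Trib3 (11.5) and Sesn2 (7.26 CPM per kb) were lower, and Chac1 was lowest at 2.07 CPM per kb. The library ranges of Xbp1 and Hspa5 overlapped, as did those of each neighboring pair from Atf5 to Sesn2, while Atf4, Ppp1r15a and Chac1 overlapped with no neighbor. Ddit3 varied most, 2.82-fold between its lowest and highest library, and Hspa5 least, 1.31-fold.

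**Figure D1:**
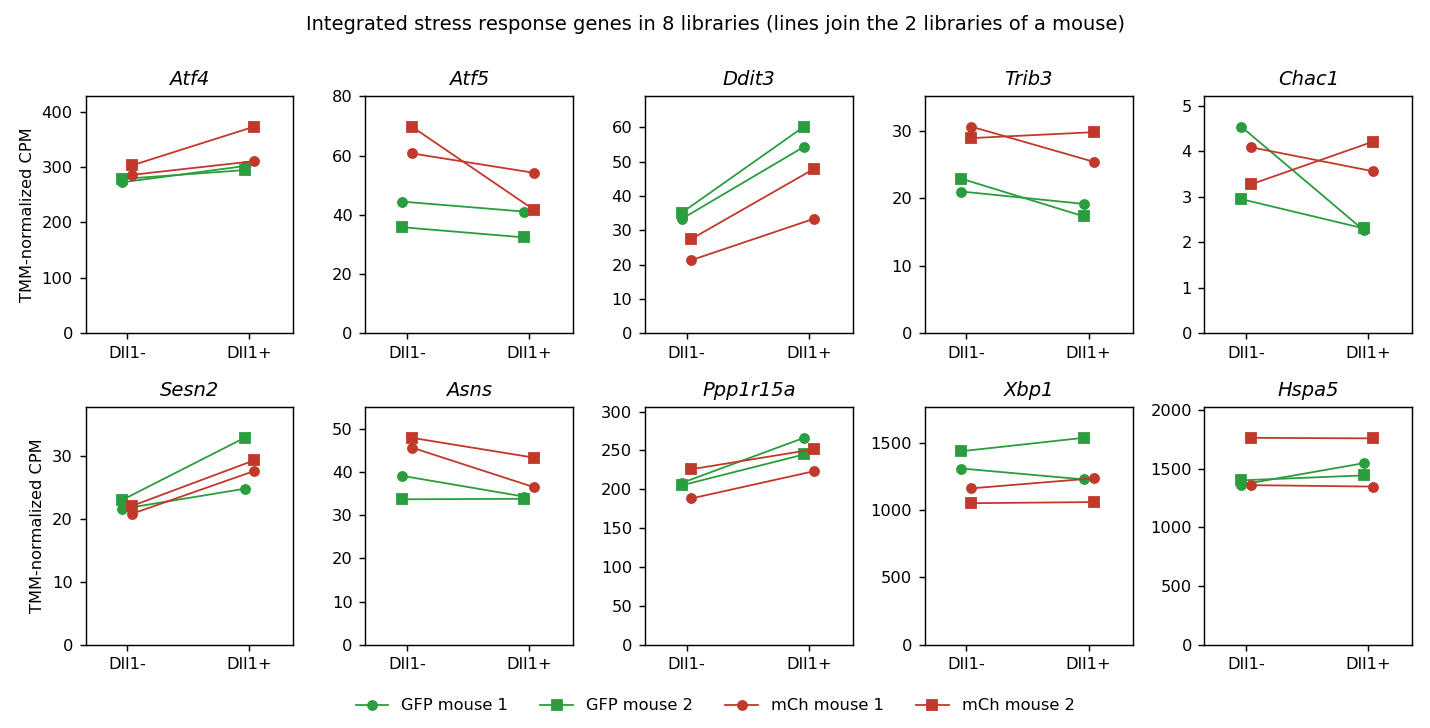
TMM-normalized CPM of each gene (y axis, from 0) in the Dll1- and Dll1+ library of each mouse (x axis), with lines joining the libraries of a mouse. The Ddit3, Sesn2 and Ppp1r15a lines rise in all 4 mice, from 33.3 to 54.3 CPM for Ddit3 in GFP mouse 1, while the Hspa5, Xbp1, Trib3, Chac1 and Asns lines do not all go the same way.

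Of the 10 genes, 3 were higher in Dll1+ than in Dll1- cells over the 4 mice, Ddit3, Sesn2 and Ppp1r15a, and none was lower. The test was edgeR's quasi-likelihood test with the mouse as a block and an adjusted p under 0.05 over all tested genes, under which 14% of all tested genes were called (6.98% higher and 7.04% lower). At an unadjusted p under 0.05 Atf4 was added as higher and 0 genes as lower, and DESeq2 called Atf4 besides the 3 (adjusted p = 0.022) and none lower. Of all 18322 tested genes, 5936 had an unadjusted p under 0.05 by edgeR, and DESeq2 called 4362. The within-mouse difference had the same sign in all 4 mice for 5 of the 10, and for 41.3% of all tested genes. The median log2 fold change was 0.039 over the 10 genes and -0.001 over all tested genes, with 6 of the 10 above 0. Within single mice 5 to 7 of the 10 genes were higher in Dll1+ cells, against 47.6% to 55% of all tested genes.

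Atf4 (chr15:80255184-80257541) encodes the central transcription factor of the response. Atf4 was at 272 and 278 CPM in the Dll1- and at 302 and 294 CPM in the Dll1+ libraries of GFP mice 1 and 2, and at 286 and 303 CPM and at 311 and 373 CPM in those of mCh mice 1 and 2. It was higher in the Dll1+ library of each of the 4 mice, by 1.06 to 1.23-fold, and the libraries of the 2 sorts overlapped. The fitted log2 fold change of 0.16 (SE 0.066) had an edgeR adjusted p of 0.153.

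Atf5 (chr7:44812256-44816658, minus strand) encodes a related factor that is translated in the same way. It was at 44.5 and 35.8 CPM in the Dll1- and at 41.1 and 32.4 CPM in the Dll1+ libraries of GFP mice 1 and 2. In mCh mice 1 and 2 it was at 60.8 and 69.8 CPM in the Dll1- and at 54.2 and 41.7 CPM in the Dll1+ libraries. The Dll1+ value was the lower one in each mouse, and by most in mCh mouse 2, with a log2 difference of -0.74, while the other 3 mice lay between -0.11 and -0.17. The fitted log2 fold change was -0.29 (SE 0.12, edgeR adjusted p = 0.154). Within mCh mice it was -0.45 (adjusted p = 0.0993), and it passed there with no filter on low counts (0.000729) and without mCh mouse 1 (-0.77, adjusted p = 0.0135), which leaves mCh mouse 2 alone. Atf5 shares 82 exon bases with Nup62, which lies on the opposite strand.

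Ddit3 (chr10:127290774-127296288), which encodes the stress-induced factor CHOP, had the largest change of the 10. Ddit3 was at 33.3 and 35.1 CPM in the Dll1- and at 54.3 and 60.2 CPM in the Dll1+ libraries of GFP mice 1 and 2, with means of 34.2 ± 1.26 and 57.2 ± 4.15 CPM (SD, n = 2). In mCh mice 1 and 2 it was at 21.3 and 27.5 CPM in the Dll1- and at 33.3 and 47.8 CPM in the Dll1+ libraries, with means of 24.4 ± 4.37 and 40.6 ± 10.3 CPM (SD, n = 2). The sorts did not overlap within a reporter line, but the Dll1+ library of mCh mouse 1 lay between the Dll1- libraries of the 2 GFP mice. The rise was 1.56 to 1.74-fold in the 4 mice. Over the mice Ddit3 rose 1.66-fold in Dll1+ cells (edgeR adjusted p = 0.00534), which is 0.73 on the log2 scale with an SE of 0.057. Since these are bulk libraries, more cells that express a gene and more of its RNA per cell cannot be told apart.

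Ddit3 was the gene of the set that passed the test in each reporter line. The log2 fold change was 0.74 (SE 0.088, edgeR adjusted p = 0.00754) in GFP mice, where 9.13% of tested genes were called, and 0.72 (SE 0.088, adjusted p = 0.0108) in mCh mice, where 11.8% were called. The fibroblast markers summed to 1366 and 1469 CPM in the Dll1- and to 1262 and 1331 CPM in the Dll1+ libraries of the GFP mice, while in the mCh mice they were lower in the Dll1+ libraries, and their part in the rise was not tested. The call within GFP mice was lost without GFP mouse 1 (adjusted p = 0.102) or GFP mouse 2 (0.128), and that within mCh mice with the mCh libraries fitted alone (0.0604). Without the mouse as a block neither passed (0.142 in GFP and 0.107 in mCh mice). The call over the 4 mice held with any 1 of them left out, with log2 fold changes of 0.71 to 0.76 and adjusted p-values of 0.00753 to 0.0396. Over the 4 mice without the block, a fit that had no term for the reporter line either, the edgeR adjusted p was 0.363. With the reporter line in place of the block, an alternative chosen after seeing the data, it was 0.0191. Ddit3 shares 68 exon bases of 1713 with Mars on the opposite strand and 105 with a second entry of the same name that held 53 counts in all 8 libraries, against 14570 for Ddit3. The setting for strand in the authors' quantification was not given in the sources used here. Mars was lower in Dll1+ cells (log2 fold change -0.24, edgeR adjusted p = 0.0322).

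Trib3 (chr2:152337422-152344032, minus strand) encodes a pseudokinase that is induced by ATF4 and CHOP. Trib3 was at 21.0 and 22.9 CPM in the Dll1- and at 19.2 and 17.3 CPM in the Dll1+ libraries of GFP mice 1 and 2, and at 30.6 and 28.9 CPM and at 25.4 and 29.8 CPM in those of mCh mice 1 and 2. The Dll1+ value was the lower one in 3 of 4 mice, with mCh mouse 2 the exception. The log2 fold change of -0.19 (SE 0.088) did not pass (edgeR adjusted p = 0.196).

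Chac1 (chr2:119351229-119354381) encodes an enzyme that breaks down glutathione. Chac1 was at 4.54 and 2.95 CPM in the Dll1- and at 2.27 and 2.30 CPM in the Dll1+ libraries of GFP mice 1 and 2, and at 4.08 and 3.27 CPM and at 3.56 and 4.21 CPM in those of mCh mice 1 and 2. The mice disagreed in direction, with log2 differences from -0.99 in GFP mouse 1 to 0.36 in mCh mouse 2. With the lowest counts of the set, its SE of 0.24 was the largest, and the log2 fold change of -0.29 had an edgeR adjusted p of 0.446.

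**Figure D2:**
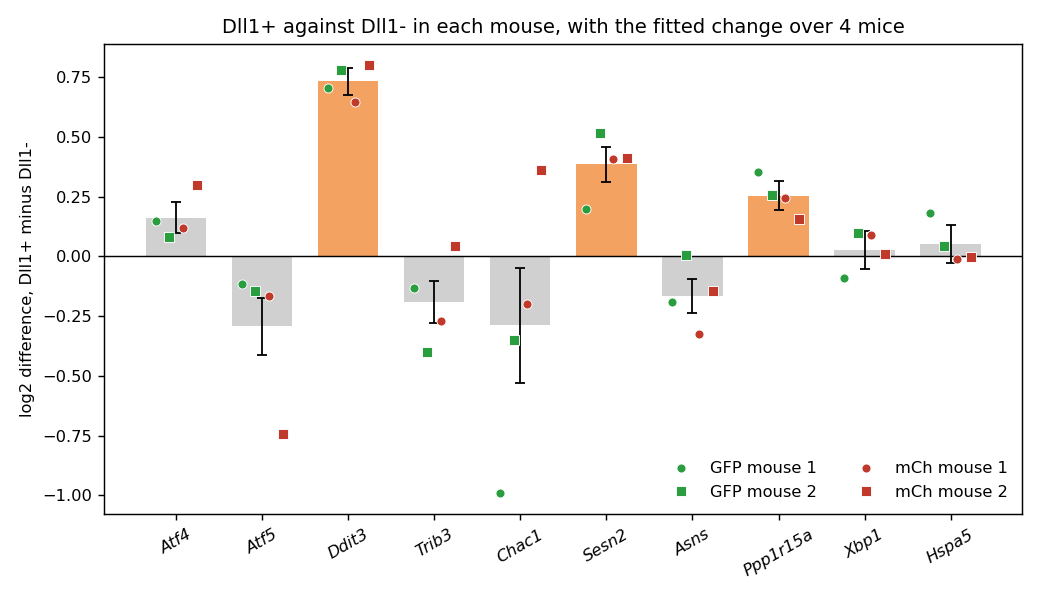
Log2 difference of Dll1+ minus Dll1- (y axis) for each gene (x axis), with points for the 4 mice, bars for the edgeR log2 fold change over the mice and error bars for its SE. The bars of Ddit3 (0.73), Sesn2 (0.38) and Ppp1r15a (0.25), in orange, have an adjusted p under 0.05, and the other 7 bars, in gray, do not.

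Sesn2 (chr4:132492032-132510501, minus strand) encodes sestrin 2, a leucine sensor that restrains mTORC1 and is induced by ATF4 and by p53. Sesn2 was at 21.6 and 23.0 CPM in the Dll1- and at 24.8 and 32.9 CPM in the Dll1+ libraries of GFP mice 1 and 2, and at 20.8 and 22.0 CPM and at 27.6 and 29.3 CPM in those of mCh mice 1 and 2. Every Dll1+ library lay above every Dll1- library, also across reporter lines. Sesn2 rose 1.31-fold in Dll1+ cells (edgeR adjusted p = 0.0259), which is 0.38 on the log2 scale with an SE of 0.073. The change was 0.36 in GFP mice (adjusted p = 0.0987) and 0.41 in mCh mice (adjusted p = 0.0597), and did not pass within either line. In mCh mice it passed with no filter on low counts (edgeR adjusted p = 0.027) and with at least 10 counts in every library (0.0469). The call over the 4 mice was lost without GFP mouse 1 (adjusted p = 0.0555), GFP mouse 2 (0.089) or mCh mouse 1 (0.103), with log2 fold changes of 0.34 to 0.45.

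Asns (chr6:7675169-7693254, minus strand) encodes asparagine synthetase, the textbook amino acid response gene, and holds the CARE match shown above 23 to 16 bases before its start site (positions -23 to -16). Asns was at 39.2 and 33.8 CPM in the Dll1- and at 34.4 and 33.9 CPM in the Dll1+ libraries of GFP mice 1 and 2, and at 45.8 and 48.1 CPM and at 36.6 and 43.4 CPM in those of mCh mice 1 and 2. The Dll1+ value was the lower one in 3 of 4 mice, and GFP mouse 2 had a log2 difference of 0.005. The log2 fold change was -0.16 (SE 0.070, edgeR adjusted p = 0.167).

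Ppp1r15a (chr7:45522916-45526268, minus strand) encodes GADD34, the phosphatase subunit that reverses eIF2 phosphorylation and so closes the feedback loop. Ppp1r15a was at 208 and 205 CPM in the Dll1- and at 266 and 245 CPM in the Dll1+ libraries of GFP mice 1 and 2, and at 188 and 226 CPM and at 223 and 251 CPM in those of mCh mice 1 and 2. It was higher in the Dll1+ library of each mouse, by 1.11 to 1.28-fold, and the sorts overlapped only between mCh mice, where mouse 2 Dll1- lay above mouse 1 Dll1+. The 1.19-fold rise (log2 fold change 0.25, SE 0.061) was near the threshold, with an edgeR adjusted p of 0.0458. The call was lost without GFP mouse 1 (adjusted p = 0.142), GFP mouse 2 (0.121) or mCh mouse 1 (0.169), and without the filter on low counts (0.0714), while the log2 fold change stayed at 0.22 to 0.26. Within a line it did not pass by edgeR (adjusted p = 0.0741 in GFP and 0.165 in mCh mice), and DESeq2 called it in GFP mice (adjusted p = 0.0208).

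Xbp1 (chr11:5520659-5525893) encodes the factor that the ER sensor IRE1 activates by splicing its mRNA, and counts per gene do not separate the spliced form. Xbp1 was at 1311 and 1440.0 CPM in the Dll1- and at 1230.0 and 1539.9 CPM in the Dll1+ libraries of GFP mice 1 and 2, and at 1163 and 1053 CPM and at 1238 and 1061 CPM in those of mCh mice 1 and 2. The sorts overlapped, and the log2 fold change was 0.026 (SE 0.078, edgeR adjusted p = 0.838).

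Hspa5 (chr2:34771970-34777547) encodes BiP, the main ER chaperone, whose promoter holds the ERSE match shown above. Hspa5 was at 1365 and 1402 CPM in the Dll1- and at 1548 and 1444 CPM in the Dll1+ libraries of GFP mice 1 and 2, and at 1361 and 1765 CPM and at 1349 and 1760.5 CPM in those of mCh mice 1 and 2. Mouse 2 of the mCh line was high in both sorts, and the log2 fold change was 0.052 (SE 0.079, edgeR adjusted p = 0.687). Plasma cells are rich in Xbp1 and Hspa5 mRNA. Their defining marker Jchain was at 0 to 2.77 CPM. In GFP mice the 11 plasma cell markers summed to 163 to 170 CPM in Dll1- and to 170 to 179 CPM in Dll1+ libraries. In the mCh libraries of both sorts the sums were 177 to 308 CPM. Gene by gene, most of these markers were lower in Dll1+ cells. Of the 9 tested, 2 had a log2 fold change above 0 over the 4 mice, and the median was -1.058. By edgeR 1 of the 9 was called higher and 1 lower. The median was -0.35 in GFP and -1.063 in mCh mice. The 2 mCh mice differed, with median within-mouse differences of -0.002 in mouse 1 and -1.129 in mouse 2. In GFP mice 1 and 2 these were -0.288 and -0.42. The part of plasma cells in the Xbp1 and Hspa5 values was not tested.

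The change with Dll1 status was then compared between the reporter lines. None of the 10 genes passed the test of the difference of the 2 effects (edgeR quasi-likelihood test), as did 0.071% of all tested genes, and 0 of the 10 had an unadjusted p under 0.05. DESeq2 also called 0 of the 10. For Ddit3 the difference of log2 fold changes, GFP minus mCh, was 0.021 (SE 0.12), and for Sesn2 it was -0.050 (SE 0.15). The largest difference was that of Chac1, at -0.75 (SE 0.37, edgeR adjusted p = 0.465), followed by Atf5 at 0.32 (SE 0.20, adjusted p = 0.579). With SEs of 0.12 to 0.37, differences of this size were not resolved with 2 mice per line.

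Levels also differed between the lines within each sort. Reporter, mouse line and any batch cannot be told apart in this comparison, since each mouse carried 1 reporter. The model shared its spread over both sorts and treated the 2 libraries of a mouse as independent. In Dll1- cells 2 of the 10 genes were higher in mCh than in GFP mice and none lower, where 36.6% of all tested genes were called. Atf5 was higher by 0.70 on the log2 scale (SE 0.19, edgeR adjusted p = 0.0278), with both mCh libraries above both GFP libraries. Trib3 was higher by 0.44 (SE 0.13, edgeR adjusted p = 0.0329). With the Dll1- libraries fitted alone, Atf5 kept its call (edgeR adjusted p = 0.0359) and Trib3 lost it (log2 fold change 0.43, adjusted p = 0.0623). In Dll1+ cells Trib3 alone of the 10 was called (edgeR adjusted p = 0.0155), higher in mCh mice by 0.60 on the log2 scale (SE 0.13), where 30.6% of all tested genes were called. The values of Atf5 (0.39 in Dll1+ cells, adjusted p = 0.162) and Chac1 (0.76, adjusted p = 0.0791) did not pass there.

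Ddit3 lay on the other side in this comparison. Its log2 fold change, mCh against GFP, was -0.49 in Dll1- and -0.50 in Dll1+ cells (SE 0.20 in both, edgeR adjusted p = 0.0956 and 0.0964). With no filter on low counts it passed in both sorts (adjusted p = 0.036 and 0.0257). Without mCh mouse 2, whose values were the higher ones in both sorts, it passed in Dll1- cells (-0.64, adjusted p = 0.00577) and in Dll1+ cells (-0.77, adjusted p = 0.0041). The calls of Atf5 and Trib3 were lost without either GFP mouse, where no tested gene was called by edgeR and the lone GFP mouse is assumed to vary like the others. Without mCh mouse 1 the call of Trib3 in Dll1- cells was lost too (adjusted p = 0.0568). Fibroblast and endothelial markers were also higher in the mCh libraries, and their part in these differences was not tested.

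**Figure D3:**
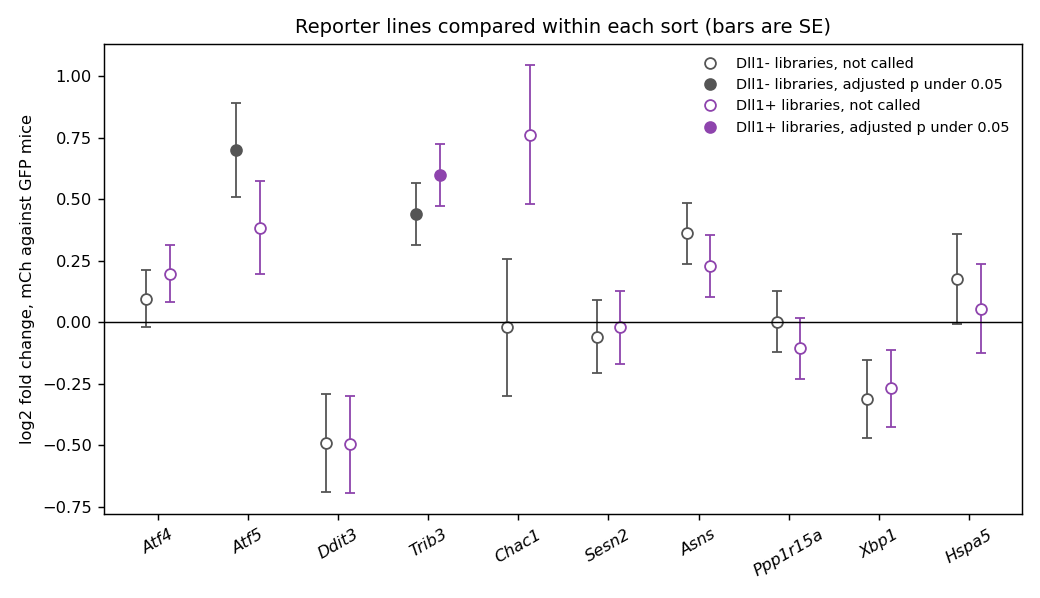
Log2 fold change of mCh against GFP mice (y axis) for each gene (x axis), in Dll1- (gray) and Dll1+ (purple) libraries, with bars for the SE and filled points for an adjusted p under 0.05. Atf5 (0.70) and Trib3 (0.44) in Dll1- cells and Trib3 (0.60) in Dll1+ cells are filled, and Ddit3 lies near -0.5 in both without passing (-0.49 and -0.50).

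The wider pathway was read from lists of its other genes, written with earlier results of these data known. The count of a list beside that of all tested genes is thus a description and not an independent test. Of 47 further ATF4 targets, 10 were higher and 20 lower in Dll1+ cells (edgeR quasi-likelihood test over 4 mice), with a median log2 fold change of -0.225 against -0.001 for all tested genes. Of all tested genes, 6.98% were called higher and 7.04% lower in this comparison, which is the background for each list and role below. Grouped by role, a grouping made after the values were seen, the genes moved in different directions. None of the 11 genes of amino acid and folate-cycle synthesis was higher and 7 were lower, with a median of -0.41. None of the 13 genes of tRNA charging and export was higher and 8 were lower, with a median of -0.25. Of the 14 regulators, secreted factors and other targets, 8 were higher and 1, Stc2, was lower, with a median of 0.395. DESeq2 called 12 of the 47 higher and 23 lower, and 4362 of all 18322 genes, 2133 higher and 2229 lower.

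Among the synthesis genes, Psat1, an enzyme of serine synthesis, was at 109 and 105 CPM in the Dll1- and at 48.0 and 38.0 CPM in the Dll1+ libraries of GFP mice 1 and 2, and at 169 and 114 CPM and at 91.1 and 65.6 CPM in those of mCh mice 1 and 2. It fell in each mouse, 2.12-fold lower over the mice (log2 fold change -1.08, SE 0.12, edgeR adjusted p = 0.00789). Phgdh, which begins the same pathway, fell as far (-1.08, SE 0.19, adjusted p = 0.0269). The other synthesis genes that fell were Mthfd2, Shmt2, Pycr1, Psph and Aldh18a1.

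Gars, the glycyl-tRNA synthetase, was at 77.8 and 72.7 CPM in the Dll1- and at 49.2 and 49.3 CPM in the Dll1+ libraries of GFP mice 1 and 2, and at 122 and 113 CPM and at 79.0 and 87.1 CPM in those of mCh mice 1 and 2. It was 1.47-fold lower in Dll1+ cells (log2 fold change -0.56, SE 0.065, edgeR adjusted p = 0.00825). The other 7 that fell were Aars, Iars, Lars, Mars, Wars, Yars and the tRNA exporter Xpot.

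Transporters were split. Slc7a1, a carrier of cationic amino acids, was at 36.1 to 42.4 CPM in the 4 Dll1- and at 21.8 to 23.1 CPM in the 4 Dll1+ libraries, which did not overlap. It was 1.78-fold lower (log2 fold change -0.83, SE 0.061, edgeR adjusted p = 0.00534), and Slc1a5 and Slc7a5, which carry glutamine and large neutral amino acids, also fell. Slc3a2, the heavy chain that pairs with Slc7a5, was at 256 to 288 CPM in the Dll1- and at 351 to 385 CPM in the Dll1+ libraries and rose 1.32-fold (log2 fold change 0.41, SE 0.062, edgeR adjusted p = 0.0148), as did Slc1a4, a carrier of alanine, serine and cysteine.

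Atf3, a stress-induced factor of the same family, was at 1064 and 1089 CPM in the Dll1- and at 1805 and 1757 CPM in the Dll1+ libraries of GFP mice 1 and 2, and at 568 and 1070 CPM in the Dll1- libraries of mCh mice 1 and 2. The Dll1+ libraries of the mCh mice were at 877 and 1565 CPM. Atf3 rose 1.58-fold (log2 fold change 0.66, SE 0.078, edgeR adjusted p = 0.00879). Vldlr, a lipoprotein receptor, rose 1.55-fold and Ddit4, an mTORC1 inhibitor that also responds to hypoxia and glucocorticoid, 1.54-fold, each in 4 of 4 mice. The others that rose were Herpud1, Cebpb, Vegfa, Bbc3 and Ero1l.

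**Figure D4:**
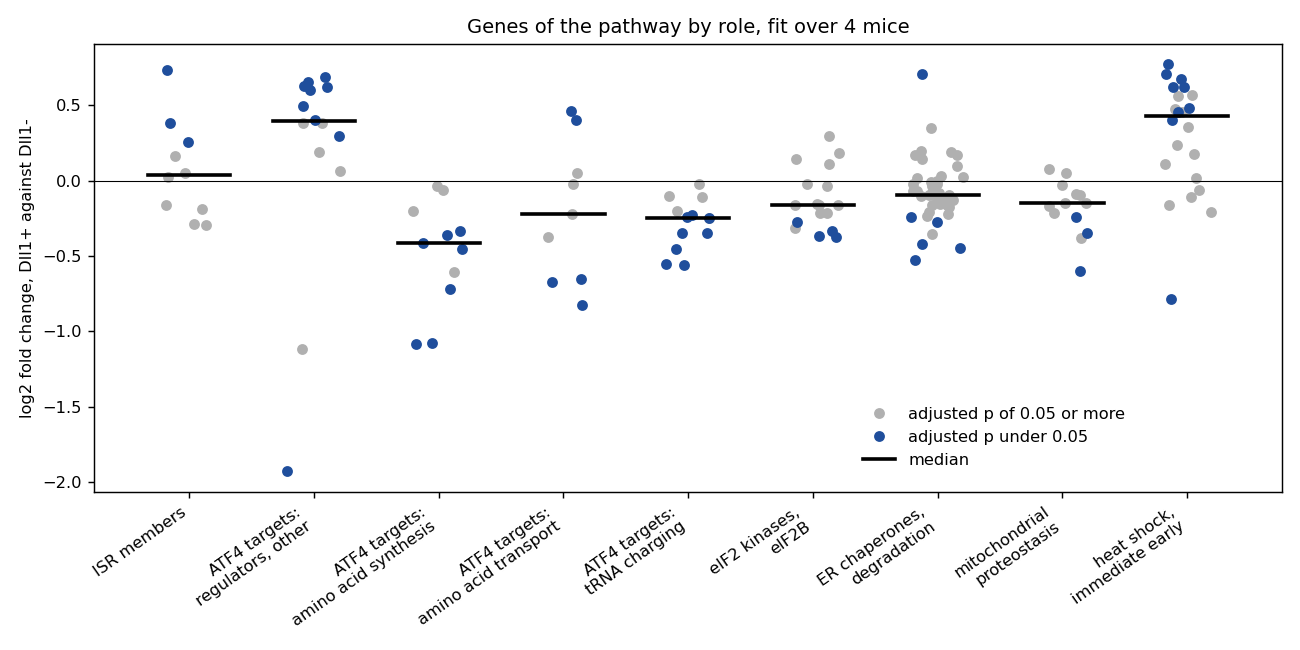
Log2 fold change of Dll1+ against Dll1- over the 4 mice (y axis) for each tested gene, grouped by list and role (x axis), with genes of an adjusted p under 0.05 in blue and black lines for the medians. The medians of amino acid synthesis (-0.41) and tRNA charging (-0.25) lie below 0, and those of the regulators (0.395) and of the heat shock and immediate early genes (0.43) above it.

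The calls among the ATF4 targets depended on the mice, as did those among all tested genes, while the medians of the targets did not turn (-0.19 to -0.24). Without GFP mouse 1, 0 were higher and 2 lower by edgeR, and without mCh mouse 1, 0 were higher and 4 lower. At an unadjusted p under 0.05, 12 and 10 were higher and 21 lower in both of these smaller fits. Of all tested genes, 4967 and 4031 passed that threshold there. Without GFP mouse 2, 6 of the targets were higher and 6 lower, and without mCh mouse 2, 7 and 17. Of all tested genes, edgeR called 433 of 19204 without GFP mouse 1 and 779 of 18708 without GFP mouse 2. It called 405 of 17740 without mCh mouse 1 and 2401 of 18374 without mCh mouse 2.

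The arm that acts on eIF2 itself showed no gene higher (edgeR over 4 mice) among 17, and 4 lower, where 6.98% of all tested genes were higher and 7.04% lower. None of the 4 eIF2 kinases passed the test. They were Eif2ak1 (log2 fold change -0.16), Eif2ak2 (0.14), Eif2ak3 (-0.16) and Eif2ak4 (-0.035), which encode HRI, PKR, PERK and GCN2. The genes that fell were Gcn1l1, which activates GCN2, and Eif2b3, Eif2b4 and Eif2b5, subunits of the exchange factor that phosphorylated eIF2 blocks, by 0.28 to 0.37 on the log2 scale (Eif2b4 -0.28, Eif2b3 -0.37). At an unadjusted p under 0.05, 1 gene of the list was higher and 10 were lower, and DESeq2 called 1, Ppp1cb, higher and 8 lower. Of all 18322 tested genes, 5936 had an unadjusted p under 0.05 by edgeR, and DESeq2 called 4362. Without GFP mouse 1, GFP mouse 2 or mCh mouse 1, edgeR called 0 of the 17, with 5, 8 and 7 lower at an unadjusted p under 0.05. In these fits 433, 779 and 405 of all tested genes were called, and 4967, 5268 and 4031 had an unadjusted p under 0.05. Within GFP mice edgeR called 0 of the 17 higher and 2 lower, and within mCh mice 1 higher and 0 lower. The medians of the list were -0.189 and -0.143, and 9.13% and 11.8% of all tested genes were called there.

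Of 42 other genes of ER folding, translocation and degradation, 1 was higher and 5 were lower by edgeR, with a median of -0.095. The 6 called are a share near the 14% of all tested genes. DESeq2 called 3 higher and 10 lower, and 4362 of all 18322 tested genes. Dnajb9, an ER co-chaperone that IRE1 and XBP1 induce, was at 44.2 and 43.7 CPM in the Dll1- and at 73.9 and 61.1 CPM in the Dll1+ libraries of GFP mice 1 and 2, and at 21.1 and 28.3 CPM and at 36.9 and 49.1 CPM in those of mCh mice 1 and 2. It rose 1.63-fold (log2 fold change 0.71, SE 0.074, edgeR adjusted p = 0.00671), and as for Ddit3 both mCh libraries of each sort lay below both GFP libraries. The genes that fell were Spcs3, Sec61b, Uggt1, Sec31a and Bhlha15, of which Spcs3, a subunit of signal peptidase, fell by 0.45 on the log2 scale (edgeR adjusted p = 0.00794). With GFP mouse 1, GFP mouse 2, mCh mouse 1 or mCh mouse 2 left out, 1, 2, 1 and 3 genes of the list were called lower. Dnajb9 was called higher in each of these fits, in which 433, 779, 405 and 2401 of all tested genes were called. The chaperones Hsp90b1 (-0.15), Calr (-0.11) and Pdia4 (-0.14) did not pass.

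Of 13 genes of mitochondrial protein quality control, 3 were lower, Htra2, Hspa9 and Dnaja3, and none was higher (edgeR), with a median of -0.15, where 7.04% of all tested genes were lower and 6.98% higher. At an unadjusted p under 0.05, 0 were higher and 6 lower, and DESeq2 called none higher and 5 lower. Of all 18322 tested genes, 5936 had an unadjusted p under 0.05 by edgeR, and DESeq2 called 4362. Htra2, a protease of the intermembrane space, was at 47.5 to 84.8 CPM in the Dll1- and at 30.8 to 51.8 CPM in the Dll1+ libraries and fell in each mouse (log2 fold change -0.60, SE 0.063, edgeR adjusted p = 0.00679). Leaving out GFP mouse 1, GFP mouse 2 or mCh mouse 1 left 1 gene of the list called lower, and leaving out mCh mouse 2 gave 5. In these fits 433, 779, 405 and 2401 of all tested genes were called.

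A list of 22 cytosolic heat shock and immediate early genes, which tissue dissociation is known to raise, had 8 higher and 1 lower by edgeR, where 6.98% of all tested genes were higher and 7.04% lower. Its median was 0.43, and 17 of the 22 log2 fold changes were above 0. Ier3, an immediate early gene, was at 536 and 672 CPM in the Dll1- and at 989 and 1080 CPM in the Dll1+ libraries of GFP mice 1 and 2, and at 275 and 529.8 CPM and at 433 and 962 CPM in those of mCh mice 1 and 2. It rose 1.71-fold (log2 fold change 0.77, SE 0.078, edgeR adjusted p = 0.00645). Fos, Fosb, Ier2, Egr1, Nr4a1, Zfp36 and Hspb1 rose as well, and Hspb8 fell. Of the classic heat shock genes, Hspa1a (0.36), Hspa1b (0.45) and Dnajb1 (0.17) did not pass. Without GFP mouse 1, GFP mouse 2, mCh mouse 1 and mCh mouse 2 in turn, 1, 2, 1 and 8 of the list were called higher by edgeR. Of all tested genes, 433, 779, 405 and 2401 were called in these fits. DESeq2 called 14 of the list higher over all mice, and 4362 of all tested genes. With the reporter line in place of the mouse block 2 of the list were called higher, Fos and Ier2, and 1352 of all tested genes were called. The 8 genes that rose did so in the same sort as Ddit3, Atf3 and Ppp1r15a, and the part of dissociation in these changes was not tested.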

How the data were processed

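RNA of 8 sorted libraries was prepared with a stranded TruSeq kit. The authors mapped the reads with salmon (version not given in the sources used here) to GENCODE mouse transcripts on GRCm38.p6, used tximport to sum transcripts to genes, and deposited the resulting estimated counts. The values were whole numbers without normalization. Reads shared by near-identical transcripts had already been assigned in the salmon step. The annotation used here (GENCODE, GRCm38) named and placed 53668 of the 53697 genes.

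Counts were tested in R 4.3.3 with edgeR 4.0.16, using TMM normalization, filterByExpr on Dll1 status and robust quasi-likelihood F tests. The model over all mice had terms for mouse and Dll1 status, as the study's methods name them, a second model had a Dll1 effect per reporter line, and reporter lines were compared in a model of 4 groups without a block. P-values were adjusted over all tested genes by the Benjamini-Hochberg method with a threshold of 0.05. A prior count of 2 was added for log2 values of single libraries. The pairs came from the mouse number in the labels, and deviations of the paired libraries from their group means correlated at 0.55 in mCh and at -0.05 in GFP mice. Replicate libraries differed by more than sampling noise (chi-square per degree of freedom 19.18 to 191.8) and were counted separately. The scripts were tested on simulated counts.

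The genes and lists were chosen with earlier results of these data known. The other genes named are up to 4 per direction of each list with the lowest p, the sorted gene and cell markers, and genes listed by name among the called ones were added after their values were seen. Alternatives were other size factors (RLE), DESeq2 1.42.0, other filters on low counts, no block, no robust option, each reporter line or sort alone, and each mouse left out. P-values for Dll1 status over all mice rest on how the within-mouse difference varied over the 4 mice. In the model with an effect per line, that spread was shared by both lines. P-values between lines rest on the spread between the 2 mice of each group, shared over the 4 groups of both sorts. That model had no term for the mouse, so the 2 libraries of a mouse were treated as independent. They were not so in mCh mice, where the paired deviations correlated at 0.55.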

Additional observations from a re-analysis of the deposited data

Results flagged for a closer look

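A total of 30 sets of 4 values were examined for a value far from the others, and chance alone marks about 1 in 20 such sets. The within-mouse log2 difference of Atf5 was -0.743 in mCh mouse 2, far from the -0.114, -0.146 and -0.165 of the other 3 mice. The values behind it were 69.8 CPM in the Dll1- library, the highest of the 8, and 41.7 CPM in the Dll1+ library. Of the 4 Dll1- libraries, that of mCh mouse 2 stood apart for Hspa5, at 1765 CPM against 1361 to 1402 CPM in the others. The Dll1+ library of that mouse had Hspa5 at 1760.5 CPM. The fibroblast and pericyte markers were highest in the Dll1- library of mCh mouse 2, at 24247 CPM, and summed to 3867 CPM in its Dll1+ library. Their part in the Atf5 and Hspa5 values was not tested.

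Hspa5 was higher in the Dll1+ library of both GFP mice and slightly lower in that of both mCh mice. The difference of the log2 fold changes, GFP minus mCh, was 0.12 (SE 0.16), and did not pass the test of the difference (edgeR quasi-likelihood adjusted p = 0.812).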

How the results depend on the processing

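With 2 mice per reporter line, counts of called genes moved strongly with the libraries used. Every alternative kept the direction of the 10 genes over the 4 mice, where 97 results kept their side of the threshold, 1 gained it and 12 lost it. The called genes numbered 2568 over the 4 mice, 4362 with DESeq2, 405 to 2401 with a mouse left out, and 0 by edgeR with no replicate block (1624 at an unadjusted p under 0.05). The fit over the 4 mice without the block had no term for the reporter line either, so differences between lines entered its spread. With the reporter in place of the block, an alternative chosen after seeing the data, 1352 genes were called, of which 1336 were among the 2568. In that last fit Ddit3 passed (edgeR adjusted p = 0.0191) and Sesn2 (0.0543) and Ppp1r15a (0.112) did not. Without the replicate block, 274 genes were called in GFP mice (1673 with it), 212 in mCh mice (2154 with it) and 0 for the difference of the effects (13 with it, 1309 at an unadjusted p under 0.05 without it). With no filter on low counts they were 3001, 3637 and 1143, and at least 10 counts in every library gave 44 for the difference, for which DESeq2 called 540. The mCh libraries fitted alone gave 0 calls by edgeR (5512 at an unadjusted p under 0.05), with Ddit3 at an adjusted p of 0.0604. With a mouse left out, calls ranged from 2 to 20 in GFP mice, from 906 to 1315 in mCh mice, and from 0 to 717 for the effect difference. Between lines they ranged from 0 to 7828 in Dll1- and from 0 to 6897 in Dll1+ cells, with the zeros in fits without a GFP mouse (4387 to 5529 genes at an unadjusted p under 0.05).

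Signs turned for log2 values near 0, none of which passed the test. With a mouse left out, values in GFP mice ranged from -0.19 to 0.011 for Asns and from -0.091 to 0.10 for Xbp1, and in mCh mice from -0.30 to 0.022 for Trib3, from -0.23 to 0.34 for Chac1 and from -0.010 to 0.061 for Xbp1. The difference of the effects ranged from -0.15 to 0.033 for Atf4, from -0.025 to 0.14 for Ddit3, from -0.28 to 0.039 for Trib3, from -0.21 to 0.11 for Sesn2 and from -0.15 to 0.050 for Xbp1. Between lines in Dll1- cells, Chac1 ranged from -0.32 to 0.31 and was 0.034 with no filter. Ppp1r15a ranged from -0.090 to 0.12 and was -0.0014 with 10 counts in every library and -0.011 in Dll1- libraries alone. In Dll1+ cells Sesn2 ranged from -0.22 to 0.18 and Hspa5 from -0.14 to 0.20. The causes were not tested. Of 286 results of the other named genes, 198 kept their call, 88 lost it and 0 turned direction.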
